A study of Mus musculus with 6 samples.

Results

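The 7 genes described here, Gata3, Tox, Tox2, Zbtb7b, Satb1, Sox13 and Zfpm1, encode transcription factors and a cofactor of T-lineage commitment other than Tcf7. They were chosen by name, with earlier results of these data known, out of 21951 protein-coding genes of the GENCODE vM21 annotation (GRCm38). H3K4me3, trimethylation of lysine 4 of histone H3, was measured by ChIP-seq in 2 mouse cell lines. Scid.adh.2C2 is a T cell progenitor line that grew out of a pro-T tumor of CB17-Prkdc<scid> mice, and 230-238 is an Abelson-transformed B cell progenitor line. Each line gave 2 H3K4me3 ChIP libraries with the same antibody and 1 input library, and the authors deposited 1 peak list per line in which both ChIP libraries are combined. The lists hold 15513 peaks for Scid.adh.2C2 and 19604 for 230-238. Neither list gives the replicates apart or any read count. Depth and the spread between replicates are therefore unknown, and values of the 2 lines are set side by side without a test. Each line is 1 established tumor or transformed line, so a difference between lineages and a difference between these lines cannot be told apart.

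H3K4me3 is laid down around the start sites of transcribed genes, mostly where CpG dinucleotides are dense, and wide domains of the mark are known at genes that define a cell's identity. GATA3 is the zinc finger factor that T cell precursors need to commit to the lineage and to become CD4 cells. TOX and TOX2 are HMG-box factors, of which TOX is needed for CD4 T cell development. ZBTB7B, also called ThPOK, fixes the CD4 fate, SATB1 organizes chromatin in thymocytes, SOX13 is known from gamma-delta T cells, and ZFPM1 (FOG1) is a cofactor that binds GATA factors.

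A gene was called marked when a peak reached the 2500 bp either side of any of its annotated TSSs by at least 1 bp. The height of a peak is its fold enrichment over the local background at the summit. The median fold was 20.3 in the Scid.adh.2C2 list and 15.4 in the 230-238 list, so levels were compared between lines only by percentile, the percent of peaks of the same list with an equal or lower value. In Scid.adh.2C2, 6 of the 7 genes were marked, against 45.5% of all protein-coding genes, and Sox13 was the exception. In 230-238 only Zbtb7b and Zfpm1 were marked, 2 of 7 against 48.2% of all genes. Gata3, Tox, Tox2 and Satb1 thus had a promoter peak in Scid.adh.2C2 alone, a state found for 719 genes or 3.28%. For Tox2 this rests on 1 low peak whose edge is 2284 bp from the nearest TSS. A missing peak may also be a weak signal below the calling thresholds. None of the 7 was marked in 230-238 only, as 5.96% of all genes were. Zbtb7b and Zfpm1 were marked in both lines (42.2% of all genes) and Sox13 in neither (48.6%). Over the whole gene with its promoter windows, 6 genes had a peak in Scid.adh.2C2 (47.9% of all genes) and 3 in 230-238 (50.9%), because Tox had a peak inside an intron there. Of the 46 annotated TSSs of the 7 genes, 24 lay inside a peak in Scid.adh.2C2 and 10 in 230-238. Over the 93526 TSSs of all protein-coding genes these shares were 36.0% and 38.0%. Zbtb7b alone gave 9 of the TSSs inside a peak in each line, and TSSs under the same peak are not independent.

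**Figure D1:**
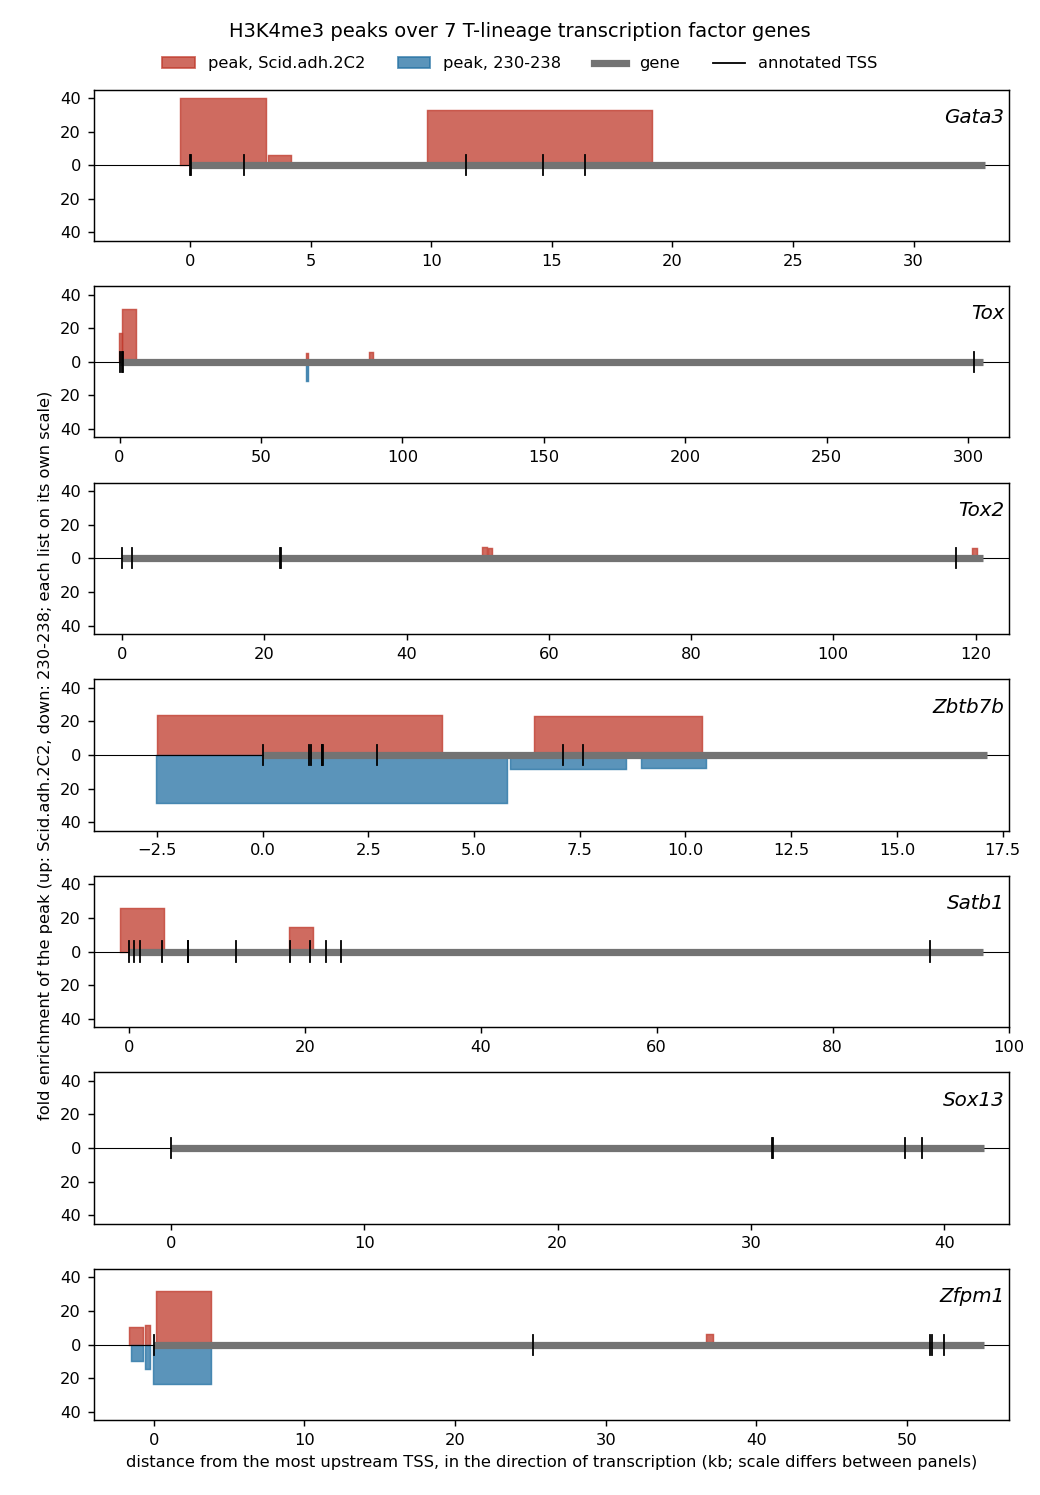
H3K4me3 peaks over the 7 genes, with the distance from the most upstream TSS in kb on the x axis and the fold enrichment at the summit as the height of each box, upward for Scid.adh.2C2 and downward for 230-238. Each box spans a whole peak, black ticks are annotated TSSs, and the 2 lists are on their own scales. Gata3 and Satb1 have boxes above the line only, Zbtb7b and Zfpm1 have boxes on both sides, and Sox13 has none.

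The RefSeq promoter table (GRCm38.p6) held 15 promoters for 6 of the genes, and Tox had no entry. The 250 bases before the TSS are printed in the direction of transcription for 7 of them. For Zbtb7b 98 bases and for Sox13 85 bases are printed, leaving out longer annotated untranslated regions. Some printed bases, as at Satb1 and Gata3, still lie within other annotated transcripts of the gene. CpG dinucleotides are in capitals, because promoters with few CpGs rarely overlapped a peak in either line. Gata3 and Satb1 stand for promoters in a peak in Scid.adh.2C2 only, Zbtb7b for both lines, Zfpm1 for a promoter whose peaks part at the TSS, and Sox13 and Tox2 for promoters with no peak.
Gata3, chr2:9878601-9878850, minus strand: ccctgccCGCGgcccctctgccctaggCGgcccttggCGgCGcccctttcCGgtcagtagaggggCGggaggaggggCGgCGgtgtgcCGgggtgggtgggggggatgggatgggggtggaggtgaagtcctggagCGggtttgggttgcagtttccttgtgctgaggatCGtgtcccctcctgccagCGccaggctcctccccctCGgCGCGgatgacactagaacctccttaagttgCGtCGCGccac
Satb1, chr17:51833291-51833540, minus strand: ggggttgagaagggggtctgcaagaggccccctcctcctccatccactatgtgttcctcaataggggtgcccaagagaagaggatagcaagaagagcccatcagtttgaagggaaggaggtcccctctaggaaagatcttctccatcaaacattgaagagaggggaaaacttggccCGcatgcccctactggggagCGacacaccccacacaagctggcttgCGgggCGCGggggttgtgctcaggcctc
Satb1, chr17:51832648-51832897, minus strand: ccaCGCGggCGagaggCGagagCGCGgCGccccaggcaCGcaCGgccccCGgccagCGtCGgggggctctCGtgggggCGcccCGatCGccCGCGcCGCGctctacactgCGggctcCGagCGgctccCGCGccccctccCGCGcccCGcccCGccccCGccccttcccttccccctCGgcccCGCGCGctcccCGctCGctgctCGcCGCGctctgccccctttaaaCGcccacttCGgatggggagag
Zbtb7b, chr3:89393379-89393476, minus strand: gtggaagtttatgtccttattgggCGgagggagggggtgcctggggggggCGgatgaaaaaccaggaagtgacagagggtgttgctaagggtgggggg
Zfpm1, chr8:122281891-122282140, plus strand: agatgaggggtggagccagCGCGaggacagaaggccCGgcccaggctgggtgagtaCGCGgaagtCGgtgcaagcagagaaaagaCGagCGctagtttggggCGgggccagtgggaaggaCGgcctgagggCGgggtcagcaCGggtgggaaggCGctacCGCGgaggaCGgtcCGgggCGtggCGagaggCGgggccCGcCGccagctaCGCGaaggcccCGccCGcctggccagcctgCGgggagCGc
Sox13, chr1:133424378-133424462, minus strand: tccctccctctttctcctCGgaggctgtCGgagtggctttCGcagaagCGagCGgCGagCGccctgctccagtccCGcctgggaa
Tox2, chr2:163202877-163203126, plus strand: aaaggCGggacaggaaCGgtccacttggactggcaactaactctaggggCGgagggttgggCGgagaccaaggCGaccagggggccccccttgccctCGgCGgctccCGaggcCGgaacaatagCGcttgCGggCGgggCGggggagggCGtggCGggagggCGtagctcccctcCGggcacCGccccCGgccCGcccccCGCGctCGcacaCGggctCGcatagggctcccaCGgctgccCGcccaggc

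The CpG count of the full 250 bases did not order the genes by their mark. Sox13 held 31 CpGs, more than or as many as 95.4% of the 32851 RefSeq promoters, and no base of it lay in a peak of either line. The Tox2 promoter shown held 27 CpGs (92.4%) and was also outside all peaks. The Zbtb7b promoter held 7 CpGs (57.0%) and lay wholly inside a peak in both lines. The Satb1 promoters marked in Scid.adh.2C2 included 1 with 41 CpGs (99.1%) and another, at the most upstream TSS, with 5 (49.6%). Over all RefSeq promoters with 30 to 34 CpGs, 71.2% overlapped a peak in Scid.adh.2C2, 72.8% did in 230-238 and 22.4% did in neither line, so that Sox13 belongs to a minority among promoters of its CpG count. Of promoters with 5 to 9 CpGs, 22.9% overlapped a peak in Scid.adh.2C2 and 25.2% in 230-238, and the Zbtb7b promoter is in this smaller group.

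**Figure D2:**
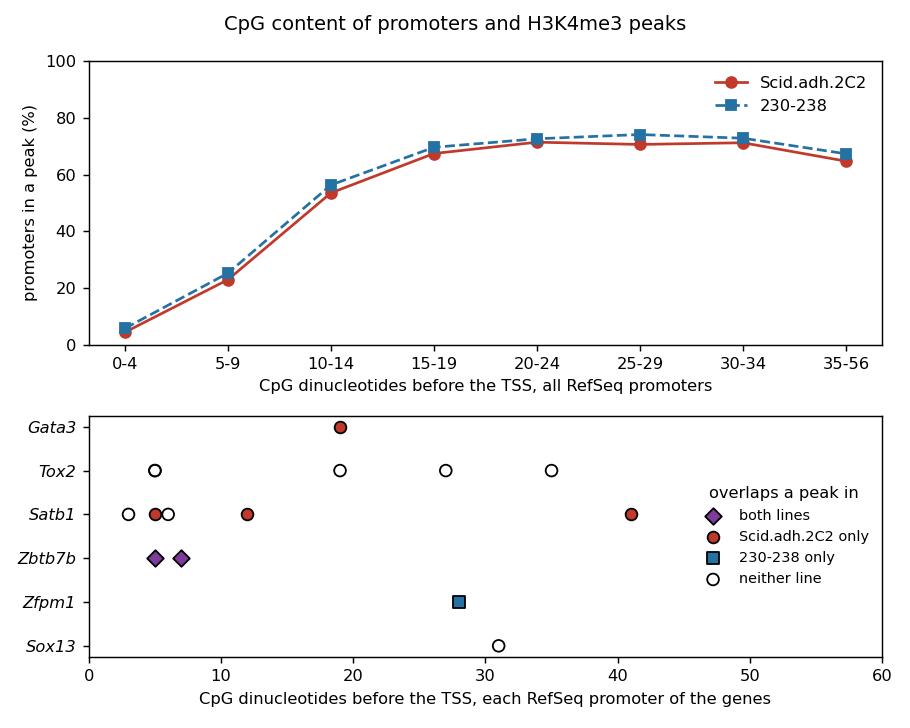
Upper panel: share of all RefSeq promoters that overlap a peak (y axis, percent) by the number of CpG dinucleotides in the 250 bases before the TSS (x axis), for both lines. Lower panel: each of the 15 RefSeq promoters of the genes at its CpG count, with the symbol giving the line or lines in which it overlaps a peak. The share rises up to about 20 CpGs, levels off and is lower again in the last bin (64.7% and 67.3%), while Sox13 and 3 Tox2 promoters with 19 or more CpGs are open symbols and both Zbtb7b promoters have fewer than 10.

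Of the 15 promoters, 4 overlapped a peak in Scid.adh.2C2 only (2.63% of all RefSeq promoters), 2 in both lines (27.9%), 1 in 230-238 only (4.52%) and 8 in neither (65.0%). Several of the 15 windows overlap each other, mainly at Tox2. The promoter found in 230-238 only was that of Zfpm1, where the peak downstream of the TSS reached 27 bp past it. Short motifs of T-lineage and general factors were searched on both strands of these 250 bases. The GATA hexamers AGATAA and TGATAA occurred in 0 of the 15 promoters, against 9.99% and 7.94% of all RefSeq promoters. GGGCGG, the GC box read by SP factors, occurred in 9 of 15 promoters (32.7% of all). Of these 9, 4 were Tox2 windows that overlap in pairs and so share boxes. CCAAT occurred in 4 promoters (33.8%), of which 3 were Tox2 windows, a pair of them 1 bp apart. TGGGAA, read by the Notch mediator RBPJ, occurred in 4, at Zbtb7b, Satb1, Sox13 and Zfpm1 (21.6% of all). The E-boxes CAGGTG and CAGCTG occurred in 3 and 1 (17.2% and 13.0%), the RUNX core TGTGGT in 1 (14.0%), the TCF motif CTTTGA in 2 nearly identical Tox2 windows (13.8%) and the ETS motif CGGAAG in 1 (13.6%). A hit is a run of letters and not a bound site.

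Gata3 (ENSMUSG00000015619, chromosome 2, minus strand) had the strongest mark of the 7. In Scid.adh.2C2 all 6 annotated TSSs lay inside a peak, and peaks covered 40.8% of the gene. The peak at the upstream promoter reached 39.9-fold enrichment, percentile 98.0 of its list, with a width of 3572 bp. The peak over the downstream promoter was 9343 bp wide, which ranked 5 among the 15513 widths of the list, and its fold of 32.8 was at percentile 88.1. The 2 protein-coding Gata3 transcripts start in different peaks of these, Gata3-202 in the upstream and Gata3-201 in the downstream peak. The third peak, of 931 bp and 5.94-fold enrichment, lay 83 bp from the upstream peak, inside an intron. These peaks also reached promoter windows of 4930412O13Rik, 9230102O04Rik and the antisense gene Gm13256, and the signal of overlapping genes cannot be separated.

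In 230-238 no peak lay on Gata3, and the nearest was 156472 bp away. Taf3, the next protein-coding gene upstream at 24517 bp, had a promoter peak in both lines, at percentile 55.7 of fold in Scid.adh.2C2 and 92.1 in 230-238. Celf2, the next on the other side, was also marked in both (66.8 and 92.8). Between Gata3 and Celf2 lay 9 peaks of Scid.adh.2C2, of 4.05-fold to 14.5-fold enrichment, and 0 of 230-238.

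Satb1 (ENSMUSG00000023927, chromosome 17, minus strand) was marked in Scid.adh.2C2 at 2 of its promoter regions. The upstream peak was 5088 bp wide, from 1056 bp before the first TSS to 4031 bp after it, with 26.1-fold enrichment (percentile 68.1 of fold, 99.16 of width). It contained 4 TSSs, and it also reached the promoter window of Gm6934 on the other strand. The other peak lay 14191 bp further into the gene, was 2732 bp wide and 14.6-fold enriched, and contained 2 TSSs of protein-coding transcripts. In all, 6 of the 12 start sites were in a peak. Of the others, 3 lay in the gap between the peaks with no peak within 2500 bp, and the remaining 3 lay downstream of both peaks. In 230-238 there was no peak on Satb1, and the nearest was 556182 bp away, at Tbc1d5, which was marked in both lines (percentile 40.8 of fold in Scid.adh.2C2, 81.2 in 230-238).

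The interval upstream of Satb1, up to Kcnh8, the next protein-coding gene at 769418 bp, held 8 peaks in Scid.adh.2C2. They lay from 47359 to 635006 bp before the Satb1 TSS. Some of them reached promoter windows of other annotated genes, namely AC161258.2, Gm19585, CT033752.1 and AC121600.1. Their fold enrichment ran from 4.75 to 11.9, and none overlapped a peak of 230-238. The single 230-238 peak whose summit lay in the interval was the Kcnh8 promoter peak, of 16.9-fold enrichment. Kcnh8 had no promoter peak in Scid.adh.2C2.

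Tox (ENSMUSG00000041272, chromosome 4, minus strand) spans 305205 bp. In Scid.adh.2C2 its mark lay at the 5' end, where a peak of 5004 bp reached 31.7-fold enrichment (percentile 85.3 of fold, 99.09 of width). A smaller peak of 963 bp and 16.9-fold enrichment lay 81 bp upstream of it. Together they contained 3 of the 4 TSSs, and the remaining TSS near the 3' end of the gene had none. In 230-238 the promoter had no peak, but an intron did. This peak, 66361 bp into the gene, was 469 bp wide and 11.4-fold enriched. A Scid.adh.2C2 peak overlapped it, 681 bp wide and 5.31-fold enriched, with a summit 200 bp away. Placed in its own list, the intronic peak was at percentile 33.1 of fold in 230-238 and at 2.00 in Scid.adh.2C2. A further intronic peak of Scid.adh.2C2, of 6.07-fold enrichment, had no partner. Nsmaf, on one side of Tox, was marked in both lines, and Car8, on the other, in neither. Between Tox and Car8 lay 4 peaks of Scid.adh.2C2 (6.02-fold to 7.69-fold) and 3 of 230-238 (9.41-fold to 9.92-fold), with 1 shared.

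Tox2 (ENSMUSG00000074607, chromosome 2, plus strand) was marked only by the definition used. No TSS of the gene lay inside a peak in either line. The peak that marked it in Scid.adh.2C2 was 704 bp wide and 6.01-fold enriched (percentile 4.39 of fold), with its summit in an exon. It began 2284 bp downstream of the TSS of Tox2-204, a transcript that starts near the 3' end of the gene, just inside the window of 2500 bp. The 4 TSSs further upstream had no peak within 2500 bp. With a window of 1000 bp, with peaks of at least 10-fold enrichment, with at least 500 bp of the window covered, or with only the most upstream TSS, Tox2 was unmarked and 3 genes remained marked in Scid.adh.2C2 only. A pair of intronic peaks, 6.84-fold and 6.23-fold enriched and 90 bp apart, had their summits 28589 and 29308 bp beyond the nearest TSS. In 230-238 the nearest peak was 81428 bp from the gene, 1 of 2 peaks between Tox2 and Gtsf1l, where Scid.adh.2C2 had 0. This nearest peak reached the promoter window of Gm11454. Tox, the paralogue of Tox2, thus had a wide, high promoter mark in Scid.adh.2C2 while the main Tox2 promoters had none.

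**Figure D3:**
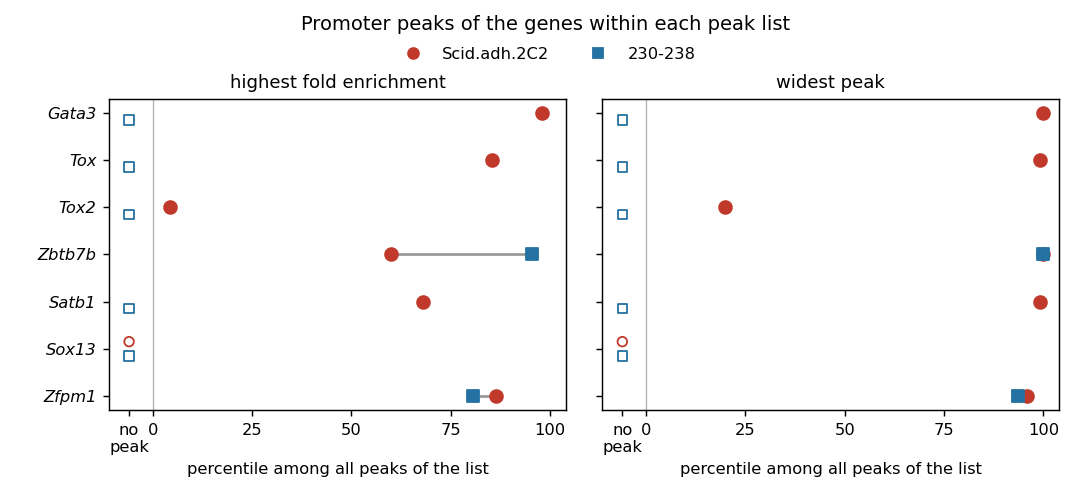
Percentile of the highest fold enrichment (left) and of the widest peak (right) among all peaks of the same list, for the promoter peaks of each gene in Scid.adh.2C2 (circles) and 230-238 (squares). Open symbols at the left mark genes with no promoter peak. Gata3, Tox, Satb1, Zbtb7b and Zfpm1 lie above the 95th percentile of width in Scid.adh.2C2, Tox2 lies low on both axes, and Zbtb7b is the gene whose fold percentile is higher in 230-238.

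Zbtb7b (ENSMUSG00000028042, chromosome 3, minus strand) carried H3K4me3 over all 9 of its TSSs in both lines. In Scid.adh.2C2 there were 2 peaks of 6735 and 3978 bp with nearly equal enrichment, 23.6-fold and 23.1-fold. In 230-238 there were 3. The upstream peak was 8307 bp wide and 28.6-fold enriched, and those over the downstream promoter were 2737 and 1535 bp wide and only 8.19-fold and 7.85-fold enriched. In both lines the upstream peak also reached the promoter window of the antisense gene Gm15417, whose signal cannot be separated. Within their own lists, the highest peak was at percentile 60.0 in Scid.adh.2C2 and 95.4 in 230-238. The difference was -35.4 percentile points (Scid.adh.2C2 minus 230-238). Of the 9261 genes marked in both lines, 9.02% had a difference this low or lower, and their median was -2.73. The downstream promoter went the other way, with its peak at percentile 58.2 in Scid.adh.2C2 and the highest of its peaks in 230-238 at 15.5. The outer edges of the marked region were alike, 25 bp apart on the upstream side, while a stretch of 2189 bp between the promoters was free of peaks in Scid.adh.2C2 and inside peaks in 230-238 except for a gap of 78 bp. Peaks covered 47.9% of the gene in Scid.adh.2C2 and 58.7% in 230-238. The neighbours Dcst2 and Lenep were unmarked in both lines.

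Zfpm1 (ENSMUSG00000049577, chromosome 8, plus strand) had the same arrangement of 3 promoter peaks in both lines. The peak downstream of the TSS was 3635 bp wide and 32.2-fold enriched in Scid.adh.2C2 (percentile 86.4) and 3815 bp wide and 23.2-fold enriched in 230-238 (80.7). The difference of 5.71 percentile points had the opposite sign, -3.95, when the peaks were ranked by -log10 q, so that no direction is given. Upstream of the TSS lay a peak of 337 bp in Scid.adh.2C2 and 333 bp in 230-238, and beyond it one of 926 and 849 bp. The shorter was at percentile 29.1 of fold in Scid.adh.2C2 and 46.3 in 230-238, and the longer at 25.8 and 26.1. Of the 6 edges of these pairs, 4 differed by 4, 6, 10 and 14 bp between the lines, and the others by 73 and 194 bp. Over the 9516 peaks that pair 1 to 1 between the lists, the median difference of an edge was 109 bp and 12.8% of edges were within 15 bp. The TSS itself lay in a gap of 442 bp in Scid.adh.2C2, 167 bp from the nearest peak, and just inside the peak in 230-238, where the gap was 258 bp. An intronic peak of 445 bp and 6.07-fold enrichment, with a low IDR score of 585, was found in Scid.adh.2C2 only.

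Sox13 (ENSMUSG00000070643, chromosome 1, minus strand) had no peak at any of its 5 TSSs or inside the gene in either line. The nearest peak was 184332 bp from the gene in Scid.adh.2C2, at the promoter of Snrpe, which was marked in both lines. In 230-238 a 10.4-fold enriched peak lay 33033 bp away. The lists cannot tell a weak H3K4me3 signal below the calling thresholds from none at all.

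Most of the genes had wide peaks in Scid.adh.2C2. The widest promoter peak was at or above the 95th percentile of width for 5 of the 7 genes in Scid.adh.2C2, Gata3, Tox, Zbtb7b, Satb1 and Zfpm1, against 4.2% of all protein-coding genes. In 230-238 this was true of Zbtb7b only, 1 of 7 against 5.02%. Only Zbtb7b and Zfpm1 had a promoter peak to measure in 230-238, and Zfpm1 fell short at percentile 93.58. The cutoff was chosen after the widths were seen. Such widths were not particular to the 7 genes. Among the other T-lineage regulators described below, Tcf7, Lef1, Bcl11b, Runx1, Gfi1, Myb, Ikzf1, Tcf12, Hes1, Notch1 and Rbpj also reached the cutoff in Scid.adh.2C2. Runx3, Ets1, Tcf3, Notch3 and Id3 did not, and Lmo2 had no promoter peak in that line. In Scid.adh.2C2 the median over the 6 marked genes was percentile 99.1 of width, and over all marked genes it was percentile 71.3. In 230-238 it was percentile 96.7 over the 2 marked genes and 73.8 over all marked genes. For the fold enrichment the corresponding medians were percentiles 76.7 and 71.2 in Scid.adh.2C2, and 88.1 and 75.2 in 230-238. Of the 18 Scid.adh.2C2 peaks over the 7 genes, 12 had no overlapping peak in 230-238, as had 25.6% of the whole list. All 7 peaks of 230-238 over these genes had a partner in Scid.adh.2C2, while 39.3% of that whole list had none. The 18 peaks lay on 6 genes and the 7 peaks on 3, and peaks of 1 gene are not independent. Of the 7, 6 were promoter peaks of Zbtb7b and Zfpm1, which were already counted as marked in both lines.

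Among the 719 genes marked in Scid.adh.2C2 only, Gata3 was in place 14 by fold and 2 by width, a width it shares with 4930412O13Rik, whose window lies under the same peak. Tox was in place 91 by fold and 18 by width, and Satb1 in place 187 and 17. Tox2 was in place 704 by fold and 628 by width. The medians of these 719 genes were percentile 47.1 of fold and a width of 1679 bp, so that Gata3, Tox and Satb1 lay above the middle on both measures and Tox2 lay below it. The genes nearest to each were sought in 4 values, the percentiles of fold and of width in either list. Genes sharing a promoter peak with the member were left out. They were Dtx1, Cd3g and Cdc42ep4 for Gata3, Foxb1, Trib2 and Chdh for Tox, and Angpt1, Rora and Pag1 for Satb1. All were marked in Scid.adh.2C2 only, which follows largely from the measure, since unmarked genes entered with 0. Dtx1 encodes the Notch pathway protein Deltex and Cd3g a chain of the T cell receptor complex. Of these genes only Cd3g was on a gene list used here, that of the pro-T markers. For Zbtb7b they were Hnrnph3, Pbld2, which shares its promoter peaks with Hnrnph3, and Mlxip. For Zfpm1 they were Scaf8, Ube2d3 and Hnrnpr. For Tox2 they were Exoc3l4, Cacna1d and Anxa2. Likeness rests on 2 lists and says nothing of shared control.

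**Figure D4:**
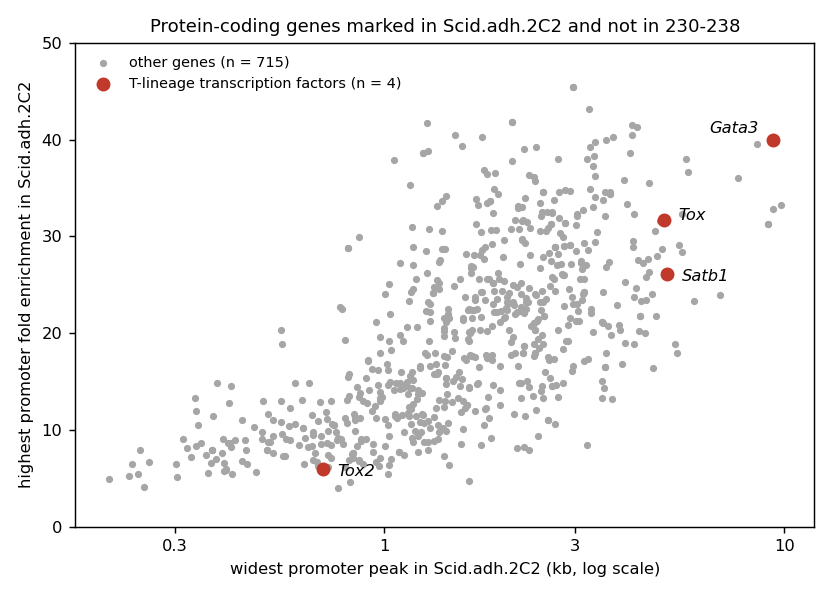
The 719 protein-coding genes marked in Scid.adh.2C2 and not in 230-238, by the width of their widest promoter peak in kb (x axis, log scale) and their highest fold enrichment (y axis). Gata3 lies at the upper right, Tox and Satb1 are both near 5 kb, and Tox2 is among the lowest peaks.

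Of 12 paralogues of the 7 genes, most were unmarked. In 10 of them, Gata1, Gata2, Gata4, Gata5, Gata6, Tox3, Zbtb7c, Sox5, Sox6 and Zfpm2, no promoter peak was found in either line. Of all protein-coding genes, 48.6% were marked in neither line. Tox4 and Zbtb7a were marked in both. None of these 12 was marked in Scid.adh.2C2 only, a state of 3.28% of all genes, so that a count of 0 among 12 is near the background.

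Of 17 other regulators of the T-lineage, 16 were marked in Scid.adh.2C2 and 14 in 230-238, with 13 in both. Over all protein-coding genes these shares were 45.5%, 48.2% and 42.2%, so the list was high in both lines. Bcl11b, Ets1 and Gfi1 had a promoter peak in Scid.adh.2C2 alone (3.28% of all genes), although 5 peaks of 230-238 lay elsewhere over Ets1. Lmo2, a stem and progenitor cell factor, had one in 230-238 alone (5.96% of all genes). Of the 13 marked in both lines, 6 had the wider peak in Scid.adh.2C2 and 7 in 230-238. The widest peak of Tcf7 spanned 10029 bp in Scid.adh.2C2 and 1332 bp in 230-238, and that of Lef1 spanned 5722 and 13050 bp. Of 10 B-lineage regulators, 5 were marked in Scid.adh.2C2 (45.5% of all genes) and all 10 in 230-238 (48.2%). Ebf1, Pax5, Irf8, Spib and Bach2 were marked in 230-238 only (5.96%).

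**Figure D5:**
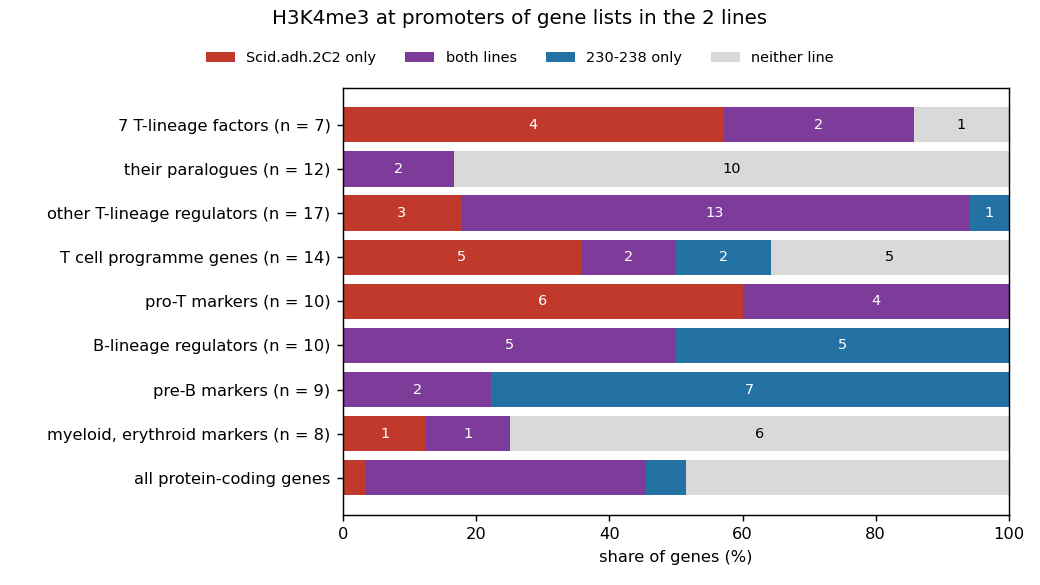
Share of genes (x axis, percent) with a promoter peak in Scid.adh.2C2 only, in both lines, in 230-238 only or in neither, for the 7 genes, for other gene lists and for all 21951 protein-coding genes, with counts printed in the bars. The 7 genes have 4 in the Scid.adh.2C2 only class. Pro-T markers fall in that class or in both lines, and pre-B markers in the 230-238 only class or in both lines.

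The labels of the lines were checked with cell type markers. All 10 pro-T markers, among them Cd3e, Thy1 and Ptcra, were marked in Scid.adh.2C2 and 4 (Cd3d, Lck, Zap70 and Lat) in 230-238. Of 9 pre-B markers, all were marked in 230-238, among them Cd79a and Igll1, and Vpreb1 and Cd72 were also marked in Scid.adh.2C2. Vpreb1 was at percentile 80.4 of fold in Scid.adh.2C2 and 73.2 in 230-238, and Cd72 at 32.7 and 44.7. The lists share genes: Ebf1 and Pax5 are also among the B-lineage regulators, and Ptcra among the T cell development genes described last. Of 8 myeloid and erythroid markers, 2 were marked in Scid.adh.2C2 (Epor and Klf1) and 1 in 230-238 (Klf1). Of all protein-coding genes, 45.5% were marked in Scid.adh.2C2 and 48.2% in 230-238.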

How the data were processed

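H3K4me3 ChIP-seq peaks of Scid.adh.2C2 and 230-238 were used. Per the methods and the processing notes, the authors trimmed reads with Trim Galore (0.6.7), mapped them to mm10 (GRCm38) with Bowtie2 (2.4.4) and called narrow peaks over the input of each line with MACS2 (2.2.7.1) at a q-value of 0.05. The optimal set of an IDR filter at 0.05 was deposited. Both replicates are combined in each list. The score, the fold enrichment ratio, the −log10 p-value and the −log10 q-value of each peak are the authors' deposited values, and their depth is unknown. Folds of the lists are on different scales, so peaks were placed by their percentile within their own list, the percent of peaks with an equal or lower value. TSSs and genes are those of GENCODE vM21 on the same build, and promoter sequences are from the RefSeq table. No test was run, since the lists give no value per replicate.

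The genes and lists were chosen with earlier results of these data known. Some genes of the lists are not reported here and were left out of their counts. The text names the 7 genes, members of the lists, the 3 most similar genes and the nearest protein-coding genes on either side. Marking was tested on simulated peaks. The 12 alternatives covered the window, the peak threshold, the overlap, the TSSs, the ranking value and merging. Tables were handled in pandas 2.3.3 and numpy 2.4.6 under Python 3.11.15, and plots came from matplotlib 3.10.9. The input libraries entered only through the peak calling.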

Additional observations from a re-analysis of the deposited data

How the results depend on the processing

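Under the 9 alternatives to the rule for a marked promoter, Zbtb7b and Zfpm1 were the genes of the 7 marked in 230-238, and none was marked in 230-238 only. In Scid.adh.2C2, 5 or 6 genes were marked and 3 or 4 were marked there only, with Tox2 as the gene that changed. The total length of the promoter peaks of Zbtb7b and Zfpm1 gave no stable direction between the lines. It was longer in Scid.adh.2C2 for 0 of the 2 genes (log2 ratios of -0.23 and -0.03), for 2 with peaks of at least 10-fold enrichment (0.37 and 0.24), for 1 with equal numbers of peaks (Zbtb7b, 0.37), and, with the whole gene counted, for Zfpm1 (0.10) but not Zbtb7b. There the intronic peaks of Tox also enter, so that 2 of 3 genes were longer in Scid.adh.2C2. With −log10 q in place of the fold, the percentile difference of Zfpm1 changed from 5.71 to -3.95. Peaks over the genes numbered 18 in Scid.adh.2C2 and 7 in 230-238, 11 and 4 with peaks of at least 10-fold enrichment, and 13 and 3 after merging peaks within 1000 bp. No replicate could be left out, because the lists combine both. No paired analysis was possible because the peak lists carry no replicate and no test was run.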

Other observations

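The 14 genes of T cell development, recombination and effector function that were listed beside the 7 factors differed from one another in their marks. In Scid.adh.2C2, 7 of them were marked, near the 45.5% of all protein-coding genes. In 230-238, 4 were marked, against 48.2% of all protein-coding genes. Rag1 and Rag2, which encode the recombinase that assembles antigen receptor genes, had peaks in Scid.adh.2C2 and none in 230-238, Rag1 with a 16.5-fold enriched peak of 3556 bp and Rag2 with an 8.20-fold enriched peak of 645 bp. The cytokine genes Il4 and Il13 had promoter peaks in Scid.adh.2C2 alone, with a highest fold enrichment of 10.2 and 11.3, while Il5 had no promoter peak in either line. Cd5 and Cd6, surface receptors of T cells, were marked in 230-238 only, at 9.50-fold and 19.9-fold enrichment. Foxp3 and Il7r were marked in both lines. Cd4, Cd8a and Cd8b1, the coreceptor genes, had no promoter peak in either line. Maf had none either. Ptcra, the pre-T cell receptor alpha chain gene, had a 16.6-fold enriched peak in Scid.adh.2C2 and none in 230-238.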
